A study of Mus musculus with 6 samples.

Results

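The genes described here encode the machinery that copies DNA and the enzymes that supply its nucleotides. The list names 56 of them, and every probe set (the group of short probes that reports 1 transcript) was taken whose platform annotation gives exactly 1 gene symbol on that list. That gave 127 probe sets for 55 genes, of 18193 genes measured, and Chaf1a was not analysed here. Where a gene had several probe sets, the 1 of highest mean over the 6 arrays stands for it, and the others are given for some genes only. The RNA came from bone marrow cells of 6-week-old male mice of genotype Hes1 GFP/WT, sorted as lineage-negative, c-Kit-positive and Sca-1-negative myeloerythroid progenitors. Both groups carry the reporter allele, and they differ in whether the sorted cells were Hes1-GFP-positive or Hes1-GFP-negative, with 3 Affymetrix arrays in each. The surface gate holds several progenitor types, and no label ties an array to an animal of its own, so p-values measure only a spread between samples that may be technical.

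Replication begins at origins, where the origin recognition complex (Orc1 to Orc6) with Cdc6 and Cdt1 loads the ring-shaped helicase Mcm2 to Mcm7 onto DNA before S phase. The Cdc7 kinase with its activator Dbf4, Cdc45 and the GINS complex then switch the helicase on. DNA polymerases, the sliding clamp Pcna and its loader RFC carry out synthesis, while ribonucleotide reductase, thymidylate synthase and folate enzymes supply the building blocks. Many of these genes are known targets of E2F transcription factors, and blood progenitors are among the most rapidly dividing cells of the adult body.

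All values are log2 of the deposited intensity, and a change is the mean of the GFP-positive arrays minus the mean of the GFP-negative arrays, with its standard error (SE) and 95% interval from limma. A gene was called higher or lower where the Benjamini-Hochberg adjusted p over 45037 probe sets was under 0.05. Array medians lay between 59.9 and 64.8 intensity units, and arrays of the same group correlated across probe sets at 0.989 to 0.993 against 0.973 to 0.979 between groups. Hes1 itself read 5.74, 6.01 and 5.90 in the GFP-negative arrays and 7.20, 7.12 and 7.13 in the GFP-positive arrays, a 2.40-fold difference (adjusted p = 0.00141). Kit, the receptor used in the sort, read 11.31 to 11.53 and 11.13 to 11.24 and was not called. Among 13 sort and progenitor markers, 4 genes, among them Epor and Klf1 of the erythroid lineage, were higher in GFP-positive cells and 6 genes, among them Flt3, Csf1r and Cd34, were lower, and the part of these markers' cells in the changes of replication genes was not tested. In bulk RNA, fewer cells of a type, or fewer cells in S phase, cannot be told apart from less RNA per cell. The GFP-negative array 3 and the GFP-positive array 1 stood apart in some immunoglobulin probe sets (Igkv8-30 at 9.83 and 10.83 against 5.99 to 7.64 in the others). These are the arrays meant below by immunoglobulin signal, although the brightest Ighm probe set also read 9.79 to 10.11 in all 3 GFP-negative arrays, against 7.69 to 8.35 in the GFP-positive arrays.

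The promoters of this set carried an E2F motif, the letters these factors recognise, in a larger share than promoters in general. RefSeq windows from 250 bases before to 50 after the transcript start (assembly GRCm38.p6) were matched for 47 of the 55 genes and searched on both strands. An E2F motif (TTTCCCGC, TTTCGCGC, TTTGCCGC or TTTGGCGC, which can overlap each other on opposite strands) was present for 15 of the 47 genes, or 31.9%, a gene with several starts counting if any of its windows held it (7 of the 47 had several). The share was 3.81% of the 14452 matched genes measured on the array and 2.6% of all 27025 genes in the table. CCAAT was present in 57.4% against 42.0%, and TTTGAA, the cell cycle homology region known from mitotic genes, in 17.0% against 15.7%. The E2F motif was found for 2 of the 9 genes called higher and for 13 of the 37 that were not called. A match describes letters in a window and is not a measured binding site.

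The following promoters show both sides of that comparison, each the 250 bases before the start, 5′ to 3′ on the strand of the gene, with E2F letters of either strand in capitals. They were chosen after their values were seen. Mcm6 (chr1:128359706-128359955, minus strand) has 3 matches, of which a pair overlap, and its gene was not called. Cdc6 (chr11:98907901-98908150, plus strand) has 1 match, 138 bases before the start, and rose. Orc5 (chr5:22550339-22550588, minus strand) and Shmt1 (chr11:60811266-60811515, minus strand) have no match and showed the largest rise and the only called fall of the set.
Mcm6: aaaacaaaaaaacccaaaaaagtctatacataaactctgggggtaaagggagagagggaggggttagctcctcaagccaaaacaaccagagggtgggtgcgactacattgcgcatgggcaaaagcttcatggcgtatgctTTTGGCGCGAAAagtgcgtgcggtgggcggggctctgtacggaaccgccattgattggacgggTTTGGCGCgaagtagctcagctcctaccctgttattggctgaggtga
Cdc6: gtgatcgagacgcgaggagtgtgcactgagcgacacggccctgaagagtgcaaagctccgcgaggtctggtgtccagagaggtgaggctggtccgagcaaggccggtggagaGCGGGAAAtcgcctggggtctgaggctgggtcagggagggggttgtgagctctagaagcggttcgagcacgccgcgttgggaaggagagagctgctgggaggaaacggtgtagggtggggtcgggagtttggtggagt
Orc5: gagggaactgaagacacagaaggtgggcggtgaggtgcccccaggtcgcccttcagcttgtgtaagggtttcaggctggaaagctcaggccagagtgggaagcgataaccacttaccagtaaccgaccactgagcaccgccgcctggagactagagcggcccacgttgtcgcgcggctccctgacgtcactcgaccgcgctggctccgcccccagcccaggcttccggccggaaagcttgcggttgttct
Shmt1: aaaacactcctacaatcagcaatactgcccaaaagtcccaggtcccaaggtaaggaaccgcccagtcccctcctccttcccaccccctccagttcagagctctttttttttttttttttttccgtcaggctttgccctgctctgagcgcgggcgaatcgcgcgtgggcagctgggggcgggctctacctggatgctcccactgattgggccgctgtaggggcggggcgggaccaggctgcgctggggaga

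Of the 55 genes, 9 were higher in GFP-positive progenitors, 1 was lower and 45 were not called. The genes that rose were Orc1, Orc2, Orc4, Orc5 and Cdc6 of origin licensing, the clamp loader subunit Rfc4, and the nucleotide enzymes Rrm1, Tyms and Mthfd1, and the gene that fell was Shmt1. The share called higher was 16.4%, beside 8.15% of all genes and 11.7% of the 8033 genes at least as bright as the dimmest of the set. The share called lower was 1.82%, beside 9.92% and 14.3% in the same backgrounds. With array medians subtracted, the calls over all genes shifted from 1482 higher and 1805 lower to 2657 higher and 1712 lower, and those in the set from 9 and 1 to 15 and 1. Changes ran from -1.17 to 1.06 with a median of 0.22, beside a median of 0.11 over all genes and 0.05 over those at least as bright. The sign was positive in 49 of the 55 genes, beside 64.6% of all genes. Groups did not overlap in 31 genes, with GFP-positive arrays higher in 28 (50.9%, beside 28.9% of all genes) and lower in 3 (5.45%, beside 16.7%).

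These shifts were small: 35 of the 55 genes differed by less than 1.2-fold, a share of 63.6% beside 53.3% of all genes. The median SD of a gene within a group was 0.09 in each group. The count of higher genes depended on the arrays used. Leaving out GFP-negative array 1, 2 or 3 gave 7, 2 and 2 genes, and leaving out GFP-positive array 1, 2 or 3 gave 5, 3 and 3. Over the same fits the share of all genes called higher fell to between 3.37% and 6.23%. Without both arrays with immunoglobulin signal, only Orc5 (adjusted p = 0.0357) was called higher and only Shmt1 (adjusted p = 0.0404) lower. In that fit 2.08% of all genes were called higher and 5.11% lower. Orc5 and Shmt1 were called under all 18 alternative settings, and Orc1, Orc5 and Shmt1 were called with each single array left out.

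**Figure D1:**
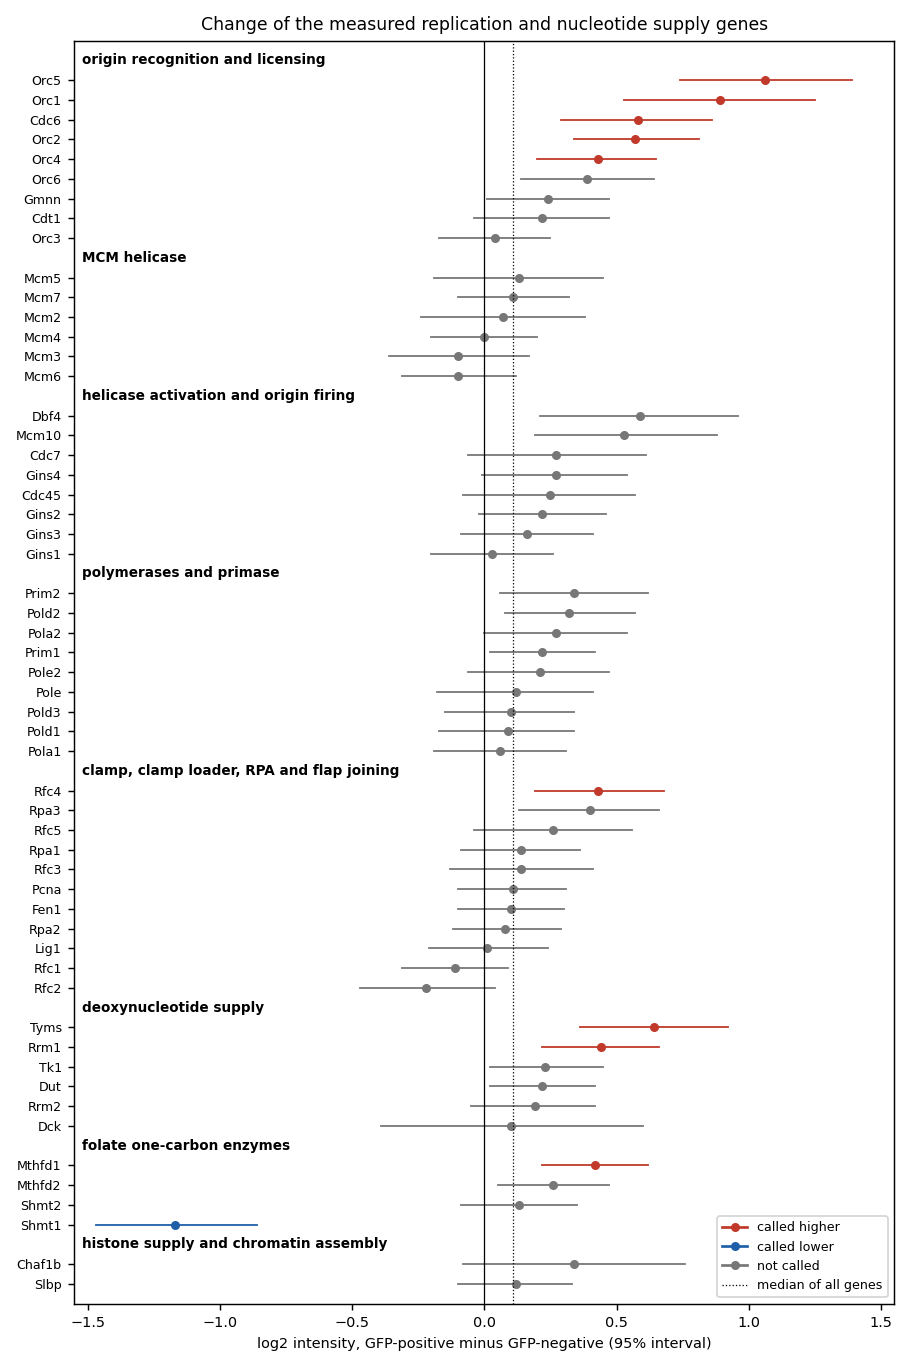
Change of each of the 55 genes (log2 intensity, GFP-positive minus GFP-negative) with its 95% interval, ordered by role and size; red and blue mark genes called higher and lower by limma, and the dotted line is the median of all genes at 0.11. The licensing genes reach 1.06 while the 6 MCM genes lie between -0.10 and 0.13, and Shmt1 stands alone at -1.17.

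Licensing genes had the largest median change of the 8 roles when each gene was read by its brightest probe set. With probe sets averaged, deoxynucleotide supply was larger (0.38 against 0.29), and likewise with the most variable probe set (0.69 against 0.43). Of the 9 genes of origin recognition and licensing, among them geminin, an inhibitor of loading, 5 were called higher (55.6%, beside 8.15% of all genes). None was called lower, beside 9.92% of all genes, and the median change was 0.43. Orc5, a subunit of the origin recognition complex, read 10.21, 10.20 and 9.82 in the GFP-negative arrays and 11.12, 11.22 and 11.06 in the GFP-positive arrays. Every GFP-positive array was above every GFP-negative array, a 2.09-fold rise (log2 1.06, SE 0.13, 95% interval 0.74 to 1.39, adjusted p = 0.00483). Orc5 has 1 probe set, so no other probe set bears on it.

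Orc1, the largest subunit and the one whose level varies through the cell cycle in mammals, read 8.56, 8.39 and 8.21 against 9.48, 9.28 and 9.06. The groups were apart by 0.89 (SE 0.15, adjusted p = 0.0122). Its other probe set, dimmer at a mean of 6.59, pointed the opposite way, with 6.46, 6.79 and 7.99 against 6.38, 6.07 and 5.86 (difference -0.98, SE 0.40, adjusted p = 0.149). That difference was not called, and GFP-negative array 3 stands well above the rest of its group there. The direction for Orc1 therefore rests on the brighter probe set: the mean of both had a difference of -0.05.

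Orc2, a core subunit, gave the same answer in all 3 of its probe sets. The brightest read 11.26, 11.28 and 11.23 against 11.75, 11.78 and 11.97 (difference 0.57, SE 0.10, adjusted p = 0.0138). The other two rose by 0.86 (adjusted p = 0.00359) and 1.30 (adjusted p = 0.00557), both more than the brightest. Orc4, which with Orc1 and Orc5 belongs to the ATP-binding part of the complex, read 10.06, 10.12 and 9.91 against 10.48, 10.44 and 10.45 (difference 0.43, adjusted p = 0.0320). Only 1 of its 4 probe sets was called, and the others had differences of -0.07, 0.30 and 0.52.

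Cdc6, the ATPase that joins the origin complex to recruit the helicase, read 10.91, 10.77 and 11.00 against 11.34, 11.64 and 11.44. The groups did not overlap, and the gene rose 1.49-fold (log2 0.58, SE 0.12, adjusted p = 0.0248). Orc6 had a difference of 0.39 without overlap but was not called (adjusted p = 0.0539). The helicase loader Cdt1 had a difference of 0.22 (interval -0.04 to 0.47), its inhibitor geminin (Gmnn) one of 0.24 (interval 0.01 to 0.47), and Orc3 one of 0.04 (interval -0.17 to 0.25). The other Cdt1 probe sets had differences of 0.43 (adjusted p = 0.0512) and 0.18, and those of Orc3 0.18 and -0.31. By its brightest probe set Orc3 sat at 1.03-fold beside 2.09-fold for Orc5, 2 subunits of 1 complex. The difference between the subunits was not tested. Without both arrays with immunoglobulin signal, 1 of the 9 licensing genes was called, beside 2.08% of all genes called higher, and their median was 0.36. With any 1 array left out 2 to 4 were called, beside 3.37% to 6.23% of all genes called higher.

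**Figure D2:**
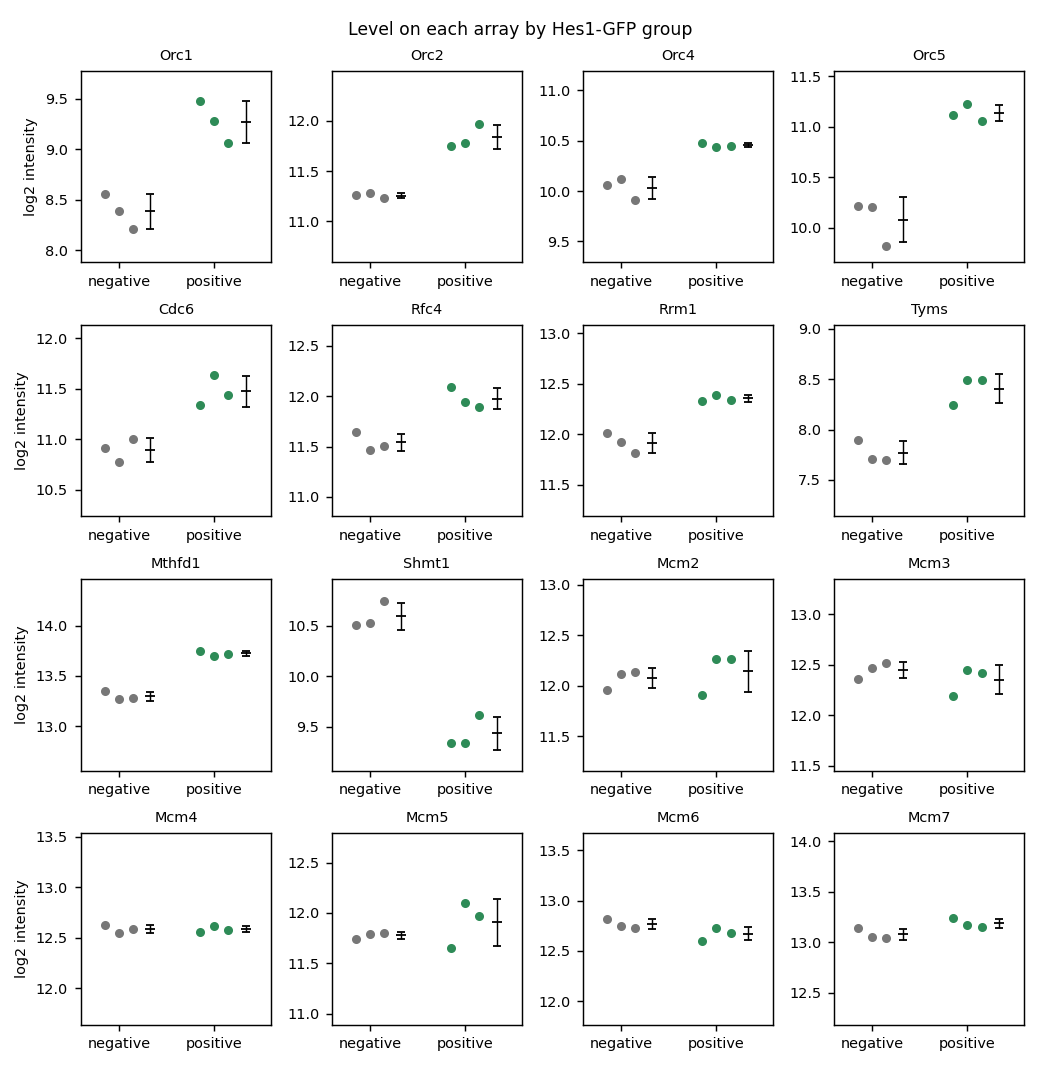
Level of the 10 called genes and the 6 MCM genes on each array (log2 intensity, vertical axes of equal span); grey points are GFP-negative and green points GFP-positive arrays, and bars give the mean ± SD of 3 arrays. Shmt1 falls from 10.51 to 10.75 down to 9.34 to 9.62, and the MCM groups overlap except for Mcm7.

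The helicase that the licensing proteins load showed no called change. None of the 6 genes Mcm2 to Mcm7 was called by limma, none had an unadjusted p under 0.05, and the median change was 0.04. Mcm4 read 12.63, 12.55 and 12.59 against 12.56, 12.62 and 12.58, a difference of -0.00 with an interval of -0.20 to 0.20, and its sign turned with array medians subtracted. Mcm7 read 13.14, 13.05 and 13.04 against 13.24, 13.17 and 13.15. Its groups did not overlap, but the difference was 0.11 (interval -0.10 to 0.32, adjusted p = 0.432). Mcm6 read 12.82, 12.75 and 12.73 against 12.60, 12.73 and 12.68, a difference of -0.10 (interval -0.31 to 0.12). For Mcm2, Mcm3 and Mcm5 the changes were 0.07, -0.10 and 0.13, and the widest interval of the 6 reached 0.45.

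The 6 MCM genes have 19 probe sets, of which 0 were called and 18 had overlapping groups, beside 6.35% of all probe sets called higher and 7.66% lower. Their changes lay between -0.12 (Mcm3) and 0.33 (Mcm5, a dim probe set with a mean of 8.18). All 6 genes were bright, with mean levels from 11.84 to 13.13. Under the 18 alternatives, the count of MCM genes called stayed at 0. A missed threshold does not show that the levels were the same, since each interval leaves room for changes up to its bounds.

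Among the 8 genes that activate the helicase or fire origins, none was called by limma and the median change was 0.26. An unadjusted limma p under 0.05 was found for 2 of them (25.0%), both higher. Over all 18193 genes it was found for 3995 higher and 2748 lower, 37.1% in both directions together. The 2 of highest level were GINS subunits. Gins1 read 12.00, 11.81 and 11.84 against 11.90, 11.95 and 11.89, with overlapping groups and a difference of 0.03 (interval -0.20 to 0.26). Gins2 read 11.25, 11.06 and 11.05 against 11.41, 11.34 and 11.28, without overlap and with a difference of 0.22 (interval -0.02 to 0.46). Gins3 and Gins4 had differences of 0.16 and 0.27.

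The 2 largest changes of this role missed the threshold narrowly, and they are named after their values were seen. Dbf4, the activator of the Cdc7 kinase, read 10.93, 10.79 and 10.75 against 11.31, 11.72 and 11.20, a difference of 0.59 (SE 0.16, adjusted p = 0.0554). Mcm10, a factor needed to start unwinding, read 10.08, 9.82 and 9.91 against 10.35, 10.73 and 10.33, a difference of 0.53 (adjusted p = 0.0577). In both, GFP-positive array 2 was the highest. A second Mcm10 probe set had a difference of 0.54 and was called (adjusted p = 0.0445), and Mcm10 and Dbf4 were called in 7 and 5 of the 18 alternatives. Cdc7 had a difference of 0.27 and Cdc45, a component of the active helicase, one of 0.25, both with overlapping groups.

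Of the 9 polymerase and primase genes, none was called by limma and all differences were positive with a median of 0.21. An unadjusted limma p under 0.05 was found for 3 of them (33.3%), all higher. Over all 18193 genes it was found for 3995 higher and 2748 lower, 37.1% in both directions together. Prim1, the catalytic primase subunit that lays down RNA primers, read 12.40, 12.41 and 12.37 against 12.63, 12.61 and 12.60. The SD was 0.02 in the GFP-negative and 0.01 in the GFP-positive arrays, and the difference was 0.22 (interval 0.02 to 0.42, adjusted p = 0.123). Prim2, the regulatory subunit, read 11.71, 11.75 and 11.55 against 11.83, 12.06 and 12.14 (difference 0.34, adjusted p = 0.108). Pola1 and Pola2, the catalytic and regulatory subunits of the primer-extending polymerase, had differences of 0.06 and 0.27. For the lagging-strand polymerase the changes were 0.09 (Pold1), 0.32 (Pold2, adjusted p = 0.0875) and 0.10 (Pold3), and for the leading-strand polymerase 0.12 (Pole) and 0.21 (Pole2).

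In the group of clamp, clamp loader, single-strand binding and flap-joining genes, the median change was 0.11, equal to the median of all genes. Limma called 1 of 11 higher and none lower, a share of 9.09% that is near the 8.15% of all genes. That gene was Rfc4, a small subunit of the clamp loader, with 11.64, 11.47 and 11.51 against 12.09, 11.94 and 11.89 (difference 0.43, SE 0.10, adjusted p = 0.0391). Its second probe set was called as well, at 0.46 (adjusted p = 0.0245). No other loader subunit was called: the differences were -0.11 for Rfc1, -0.22 for Rfc2, 0.14 for Rfc3 and 0.26 for Rfc5. Rfc1 and Rfc2 were 2 of the 3 genes of the set whose GFP-positive arrays all lay below the GFP-negative arrays.

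Fen1, the flap endonuclease that trims Okazaki fragments, was the brightest gene of the set. It read 13.62, 13.62 and 13.60 against 13.68, 13.73 and 13.73, without overlap but with a difference of only 0.10 (interval -0.10 to 0.30). Its other probe set had a difference of 0.36 without overlap and was not called (adjusted p = 0.0555). Pcna, the sliding clamp, read 13.33, 13.27 and 13.23 against 13.42, 13.38 and 13.36 (difference 0.11, interval -0.10 to 0.31). Lig1, the ligase that seals the fragments, had a difference of 0.01, and its sign turned when quantile normalization was repeated. Of the single-strand binding protein, Rpa1 and Rpa2 had differences of 0.14 and 0.08 and the small subunit Rpa3 one of 0.40 (adjusted p = 0.0648).

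Deoxynucleotide supply had 2 of 6 genes higher (33.3%, beside 8.15% of all genes) and a median change of 0.23. Rrm1, the large subunit of ribonucleotide reductase, read 12.01, 11.92 and 11.81 against 12.33, 12.39 and 12.34 (difference 0.44, SE 0.09, adjusted p = 0.0279), and a second of its 3 probe sets rose by 0.57 (adjusted p = 0.0491). Tyms, thymidylate synthase, read 7.90, 7.71 and 7.70 against 8.24, 8.49 and 8.49, a 1.56-fold rise (adjusted p = 0.0165). It was the dimmest gene of the set. Its 4 probe sets disagreed. A second 1, very dim at 3.36 to 4.65, was higher by 0.81 (adjusted p = 0.0484). The other 2, also dim with means of 6.13 and 6.53, had differences of -0.36 and -0.12.

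Rrm2, the small reductase subunit made in S phase, shows how the choice of probe set matters. Its brightest probe set read 13.01, 13.15 and 13.16 against 13.19, 13.33 and 13.36, a difference of 0.19 that was not called (adjusted p = 0.246). The other two, at mean levels of 10.80 and 11.06, rose by 0.87 (adjusted p = 0.00232) and 0.69 (adjusted p = 0.00533). The 3 probe sets differ in level and all are positive, and why the sizes differ was not tested. Thymidine kinase Tk1 had a difference of 0.23 and the dUTPase Dut one of 0.22, each without overlap and each not called. Deoxycytidine kinase Dck had a difference of 0.10 with the largest SD of the set, 0.38 in the GFP-positive arrays, which read 11.50, 12.12 and 12.17. Other Dck probe sets had differences of 0.90 (adjusted p = 0.0776, without overlap) and 0.36 (adjusted p = 0.288), neither called.

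The 4 folate enzymes held the only called fall of the set and 1 of the rises. Shmt1, the cytosolic serine hydroxymethyltransferase, which passes carbon from serine to folate, read 10.51, 10.53 and 10.75 in the GFP-negative arrays and 9.34, 9.34 and 9.62 in the GFP-positive arrays. It was 2.24-fold lower in GFP-positive progenitors (log2 -1.17, SE 0.13, 95% interval -1.47 to -0.86, adjusted p = 0.00286). All 4 of its probe sets were lower without overlap and 3 were called, at -1.17, -1.31 and -1.0, while the other had a difference of -0.75 (adjusted p = 0.0849).

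Mthfd1, the cytosolic enzyme that interconverts folate carbon units, went the other way. It read 13.35, 13.27 and 13.28 against 13.75, 13.70 and 13.72 (difference 0.42, SE 0.08, adjusted p = 0.0216), and a second probe set rose by 0.91 (adjusted p = 0.00549). The mitochondrial enzymes Mthfd2 and Shmt2 had differences of 0.26 and 0.13 and were not called, although neither gene had overlapping groups. Shmt1 and Shmt2, the cytosolic and mitochondrial forms of 1 activity, thus read -1.17 and 0.13, with intervals of -1.47 to -0.86 and -0.09 to 0.35, and the difference was not tested.

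Of the histone supply genes, Slbp, which binds the stem-loop of histone mRNA, read 12.79, 12.82 and 12.86 against 12.84, 13.00 and 12.97 (difference 0.12). Chaf1b, a subunit of the chromatin assembly factor, read 10.82, 10.37 and 10.33 against 11.05, 10.65 and 10.84 (difference 0.34, SE 0.17, adjusted p = 0.234). Both overlapped between groups, limma called neither, and neither had an unadjusted p under 0.05.

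**Figure D3:**
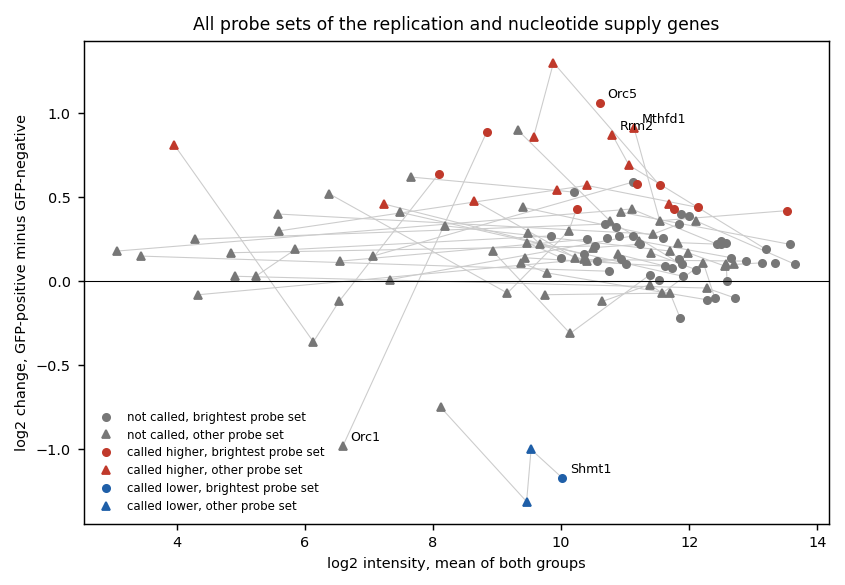
Change of each of the 127 probe sets (log2 intensity, GFP-positive minus GFP-negative) against its mean level; circles are the brightest probe set of a gene, triangles the others, grey lines join probe sets of 1 gene, and colours mark limma calls. Of the 127, 20 were called higher and 3 lower, all 3 of Shmt1, and the Orc1 pair lies at 0.89 and -0.98.

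Over all probe sets of the set, 20 of 127 (15.7%, beside 6.35% of all probe sets) were called higher and 3 (2.36%, beside 7.66%) lower. Of the 43 genes with several probe sets, 25 had a median change in their other probe sets that was larger in absolute size than that of the brightest, in either direction, and 18 did not. Mcm10, Gins3, Pold3 and Rrm2 were not called by their brightest probe set but had another called higher. No gene had probe sets called in both directions. When the probe sets of a gene were averaged, 16 genes were called higher and 1 lower, beside 13.0% of all genes called higher.

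Within a group of 3 arrays, every gene has 1 lowest and 1 highest array, so each array is lowest or highest for some genes. The counts that follow describe the set, and the share over all genes was not computed. GFP-positive array 1 was the lowest of its group for 25 of the 55 genes, among them 5 of the 6 MCM genes and all 6 deoxynucleotide supply genes. The same array was the highest of its group for 21 genes, among them 5 of the 9 licensing and 5 of the 9 polymerase and primase genes, and its median deviation over the set was -0.02. Dck was the largest case, 0.43 below its group mean on that array, followed by Mcm5 at -0.26 and Mcm2 at -0.23. GFP-positive array 2 was the highest of its group for 5 of the 8 helicase activation genes, with Dbf4 0.31 and Mcm10 0.26 above the group mean. Among the GFP-negative arrays, array 1 was the highest for 31 genes and array 3 the lowest for 24. Over all probe sets, limma array weights were 0.576 for GFP-positive array 1 and 0.621 for GFP-negative array 1, against 1.13 to 1.51 for the others. A lower weight stands for larger scatter. GFP-positive array 1 also holds immunoglobulin signal, whose part in these levels was not tested.

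**Figure D4:**
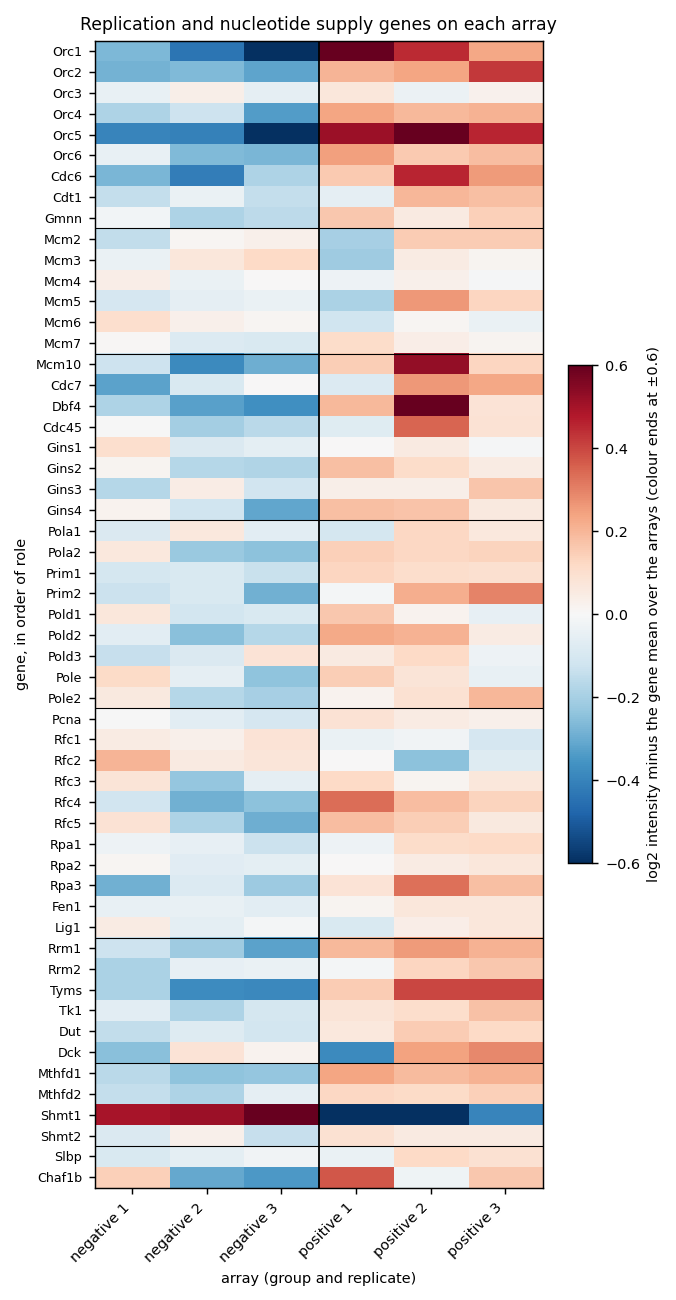
Level of each of the 55 genes on each array as log2 intensity minus the mean of the gene over the 6 arrays, with genes in order of role and black lines between roles; colours end at ±0.6, so larger values are drawn at that limit. Licensing genes are red in all GFP-positive arrays except in Orc3 and Cdt1, Shmt1 is reversed, and Mcm2, Mcm3, Mcm5 and Dck are low in GFP-positive array 1.

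Genes of the same processes outside the set were examined next. Of 28 other replication and fork genes, 6 were higher and 2 lower with a median of 0.28, beside 8.15% and 9.92% of all genes. Recql4, a helicase of origin firing, read 7.82, 7.25 and 7.31 against 8.44, 8.57 and 8.45 and rose by 1.03 (adjusted p = 0.0116). Pole3, a histone-fold subunit of the leading-strand polymerase, rose by 0.74 (adjusted p = 0.0253). Pold4, the smallest subunit of the lagging-strand polymerase, read 10.32, 9.93 and 10.05 against 9.01, 8.89 and 8.92 and fell by 1.16 (adjusted p = 0.00291), whereas Pold1, Pold2 and Pold3 were not called.

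Of 33 other genes of nucleotide synthesis and salvage, 3 were higher and none lower, with a median of 0.07. The share called higher was 9.09%, near the 8.15% of all genes. They were cytidine deaminase Cda at 1.12 (adjusted p = 0.0162), adenylate kinase Ak1 at 0.87 (adjusted p = 0.0419) and guanylate kinase Guk1 at 0.53 (adjusted p = 0.0341). None of the measured enzymes of stepwise purine synthesis (Ppat, Gart, Pfas, Paics, Adsl and Atic) was called by its brightest probe set, with changes from -0.09 to 0.29. Without both arrays with immunoglobulin signal, none of the 61 genes of the 2 lists was called higher by limma, 15 of them were higher at an unadjusted p under 0.05, and 1 was called lower. In that fit 2.08% of all genes were called higher and 5.11% lower.

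Of 24 genes listed here as mitosis genes, 14 were higher (58.3%, beside 8.15% of all genes) and none lower (beside 9.92%), with a median of 0.54. The list also holds Ccna2 and Mki67, which are not confined to mitosis. Plk1, a mitotic kinase, read 8.85, 8.73 and 8.45 against 9.97, 10.16 and 10.08, a difference of 1.39 (adjusted p = 0.00194). Aurka rose by 1.13 (adjusted p = 0.0107) and Cdc25c by 0.93 (adjusted p = 0.0205). Beside these, the replication genes had 9 of 55 called higher and a median of 0.22. The difference between the lists was not tested. When the GFP-negative array 3 and the GFP-positive array 1 were left out, 2 mitosis genes were called, beside 2.08% of all genes, and their median was 0.50. With any 1 array left out, 6 to 10 were called, beside 3.37% to 6.23% of all genes called higher. The count was 20 with an intensity trend and robust prior (beside 9.38%), 19 with array medians subtracted (14.6%) and 17 with probe sets averaged (13.0%). It was 10 with the replicate number as a block (5.61%) and 5 with a fold floor of 1.2 (2.92%).

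**Figure D5:**
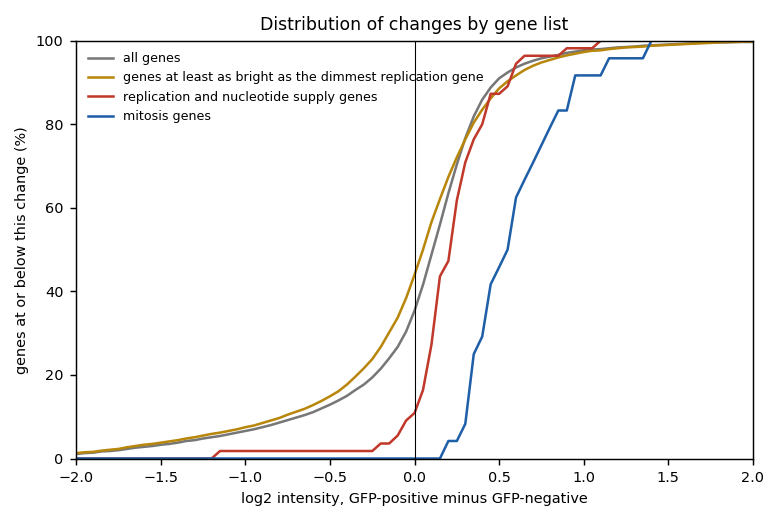
Share of genes (%) at or below each change (log2 intensity, GFP-positive minus GFP-negative) for all 18193 genes, the 8033 genes at least as bright as the dimmest of the set, the 55 replication and nucleotide supply genes, and 24 mitosis genes. At a difference of 0 the curves stand at 35.4%, 44.0%, 10.9% and 0.0%, and the replication curve is steep because most changes are small and positive.

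Some markers of other cell types also differed between the groups, while most were not called. Summed over 8 measured B lymphoid and plasma cell markers, intensity was 5652 to 6334 in the GFP-negative and 2864 to 3361 in the GFP-positive arrays, with 2 genes (Cd79b and Ighm) lower. Of the 8, 4 were above 0, among them Mzb1 at 0.92 and Cd79a at 0.55, neither called, and the B cell genes Ms4a1 and Pax5 were dim, at 3.77 to 4.35 and 5.39 to 5.59. The sum over 7 mature myeloid markers ran from 2745 to 7200 and from 6316 to 17425, highest in GFP-positive array 2, with none called by limma and none at an unadjusted p under 0.05. Late erythroid markers summed to 4858 to 5357 and 5584 to 6943 over 4 genes, with Epb42 higher. The others were not called, among them Alas2 at -0.11 and Hba-a1, which was dim at 3.74 to 4.26. The 6 T and natural killer cell markers summed to 206 to 210 and 251 to 278. None of them was called, and all were dim, with mean levels of 4.11 to 5.92. The 6 stroma and endothelium markers summed to 451 to 539 and 346 to 506, ranges that overlap, with Pecam1 lower. In that list 4 of the 6 were above 0, among them Col1a1 at 1.90 and Cxcl12 at 1.41, neither called. The part of these cells in the results above was not tested.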

How the data were processed

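Intensity values per probe set were deposited on a linear scale and were made by the authors with RMA, per the submitters' processing notes; no source used here gives the RMA version, its settings or the step from log2 back to linear values. Total RNA, 5 ng per sample, was amplified and biotin-labelled, per the labels' protocols. Values were taken to log2 without further normalization. After 64 array controls were left out, 45037 probe sets were tested in R 4.3.3 by limma 3.58.1, using lmFit and eBayes on 3 against 3 arrays with no covariate and Benjamini-Hochberg over all. Gene names came from the platform annotation (34945 probe sets with 1 gene, 932 with several, 9160 with none). The number of arrays limits the precision, and no detection calls were used.

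The genes, role groups, other lists and alternatives were chosen with earlier results of these data known, so no list was tested as a set. Values on every array are given, in each role group, for up to 4 called genes of largest change, or for the 2 of highest mean where fewer than 2 were called. Rfc4, Mcm4, Dbf4, Mcm10, Rrm2, Dck and the fifth licensing gene, Orc4, were added after their values were seen. Of the lists of other replication, nucleotide, mitosis and E2F genes, up to 3 called genes of largest change are named. The rest, among them the markers of cell types, were named after their values were seen. The procedure was tested on simulated data, in 5 runs with 200 changed probe sets each. It recovered 0.4% of log2 changes of 0.5, 44.4% of those of 1.0 and 79.6% of those of 2.0. Of its calls, 5.89% were false. Far more probe sets were called in the data, 2860 higher and 3452 lower. The simulation also drew spreads at random over all probe sets, whatever their level, so its spread is not that of these genes. For both reasons these shares do not carry over directly. Tables were made with pandas 2.3.3 in Python 3.11.15 and figures with matplotlib 3.10.9.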

Additional observations from a re-analysis of the deposited data

How the results depend on the processing

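The fall of Shmt1 and the rise of Orc5 were called under all 18 alternatives, 30 of the 55 genes were called under none, and 15 uncalled genes were called under some. The count lower stayed at 1 throughout, while the share of all genes called lower ran from 5.11% to 18.5%. The median change lay between 0.18 and 0.29. The count of higher genes was 19 with an intensity trend and robust prior, 15 with array medians subtracted, 18 of 53 tested under the stricter filter on dim probe sets, 14 with log2(value + 16), 2 with a fold floor of 1.2 (limma treat), 16 with probe sets averaged, 2 to 7 with 1 array left out, and 1 without both arrays with immunoglobulin signal. Beside these, the share of all genes called higher was 9.38% with the trend, 14.6% with medians subtracted and 21.4% under the stricter filter. It was 9.95% with log2(value + 16), 2.92% with the fold floor and 13.0% with probe sets averaged. It was 3.37% to 6.23% with 1 array left out, and 2.08% without both arrays with immunoglobulin signal. With the replicate number as a block the count was 3, beside 5.61% of all genes. Orc4, Cdc6, Rfc4, Rrm1, Tyms and Mthfd1 were lost. Deviations of same-numbered arrays from their group means correlated at 0.02 to 0.05 over probe sets, and the labels do not say that numbers pair arrays, so the reported fit has no block; whether arrays were collected in pairs is not known. Orc1 turned to -0.05 with probe sets averaged and to -0.98 when its most variable probe set stood for it.

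For the 61 other replication and nucleotide genes (9 higher, 2 lower), the counts higher and lower were 17 and 6 with the trend, 17 and 1 with medians subtracted, 18 and 8 under the stricter filter, and 2 and 1 with the fold floor. The replicate block gave 3 higher and averaged probe sets 15 higher. The lower count was 6 under the milder filter, 5 with log2(value + 16) and 5 with array weights. With 1 array left out they ran from 1 to 8 and 1 to 2, and without both arrays with immunoglobulin signal they were 0 and 1 (15 higher at an unadjusted limma p under 0.05). For the settings with a higher count here, the shares of all genes called higher are given above. The share called lower was 11.2% with the trend, 9.41% with medians subtracted, 18.5% under the stricter filter and 6.33% with the fold floor. It was 17.6% under the milder filter, 10.6% with log2(value + 16) and 11.0% with array weights. With 1 array left out it was 6.68% to 8.82%, and without both arrays with immunoglobulin signal 5.11%. Fewer probe sets tested or fewer arrays change the adjustment by construction. For the other settings the cause was not tested. No detection calls were used, so signal over background is unknown.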

Other observations

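The E2F factors and pocket proteins are the known regulators of replication genes. Of 13 measured, 2 were higher in GFP-positive progenitors, none was lower and the median change was 0.07, beside 8.15% and 9.92% of all genes called. The count higher was 1 to 2 with any 1 array left out and 0 by limma without both arrays with immunoglobulin signal, where 3 of the 13 were higher at an unadjusted p under 0.05. The count was 4 with an intensity trend and robust prior, medians subtracted, log2(value + 16), array weights or probe sets averaged. In those settings 9.38% to 14.6% of all genes were called higher. The count was 3 with the replicate block, beside 5.61%, and 1 with the fold floor, beside 2.92%. E2f4, a repressor-type member, read 9.34, 8.96 and 9.26 in the GFP-negative arrays and 9.98, 10.11 and 9.89 in the GFP-positive arrays, a 1.75-fold rise (limma adjusted p = 0.0117). E2f2, an activator-type member, read 9.74, 9.72 and 9.95 against 10.23, 10.20 and 10.35 (change 0.46, adjusted p = 0.0357). E2f1 had a difference of -0.22 with overlapping groups (adjusted p = 0.257), and E2f3 one of -0.01. Rb1, the retinoblastoma protein, had a difference of 0.61 without overlap and missed the threshold (adjusted p = 0.0508).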
